A study of Mus musculus with 18 samples.

Results

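The genes described here encode the collagens, the proteins assembled with them outside the cell, and the receptors and actin-binding proteins of the fibroblasts that make that matrix. They were read from a microarray series on mouse immune cells. The list holds 40 genes, chosen by symbol, and 39 of them had a probe set with a single annotated symbol, among 18193 genes measured in all; 1 of the 40 is not analysed here. Where a gene had several such probe sets, the one with the highest mean log2(signal + 16) over all arrays stood for it. The 39 were sorted by role into 9 classes: fibrillar collagens, other collagens, matrix glycoproteins, small leucine-rich proteoglycans, microfibril and fibulin proteins, lysyl oxidases, fibroblast surface receptors, contractile proteins and secreted binding proteins.

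Fibroblasts secrete procollagens, which are trimmed outside the cell, packed into fibrils and cross-linked by lysyl oxidases. Small proteoglycans and glycoproteins set the spacing of the fibrils and tie them to cells, and fibroblasts under tension take on smooth muscle actin and other contractile proteins. Macrophages and other blood-derived cells make little fibrillar collagen, so these genes are commonly read as marks of stromal cells in immune cell preparations. Fibronectin and thrombospondin 1 are exceptions in part, since macrophages are known to make them as well.

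RNA from 18 samples was hybridised to 1 Affymetrix array each. The sample labels name mouse immune cells at time zero, called control, and 1 h and 4 h after treatment, and the design text of the series adds that knockout mice received a cell wall extract. No label gives a genotype, strain, age, cell type, animal or batch, nor the source of the extract, so what all samples share beyond these words is not known here. The titles carry an array code. The codes fall into 3 ranges, 44-54, 32-37 and 12-22, each with 6 arrays: 2 of time zero, 2 of 1 h and 2 of 4 h. What the ranges stand for is not given in the sources used here, and they are therefore called by their codes. The comparisons asked how the genes differ between the ranges, with time as a term, and how they differ between the times, with range as a block. Nothing states that the arrays of a range or time came from separate animals or cultures, and a p-value therefore measures only how far these samples scatter, some of which may be technical.

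Values are the deposited signals, linear brightness per probe set. Differences are on the scale of log2(signal + 16), which understates the change of dim genes, and are given with their standard error from a limma fit over all 45037 non-control probe sets. A gene is called higher or lower when its limma adjusted p is under 0.05. Signals of different genes come from different probes, so no gene's level is compared with that of another; brightness served to choose the probe set of a gene and the genes whose signals are printed. In a bulk sample, fewer cells of a type and less RNA per cell cannot be told apart.

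Acta2, Fbln2 and Col1a2 are members of different classes that were higher in 44-54 than in 32-37 and 12-22, and their promoters are shown because each holds a CArG box, the binding sequence of serum response factor, a regulator of actin and other contractile genes. The sequences are the 250 bases before the transcription start in RefSeq, build GRCm38.p6, written 5′ to 3′ on the strand of the gene, with the CArG boxes in capitals. Acta2, smooth muscle actin, lies on the minus strand (chr19:34255374-34255623) and has boxes whose first bases are at -84 and -34 from the start. Fbln2, fibulin 2, lies on the plus strand (chr6:91212514-91212763) with a box at -71. Col1a2, a chain of type I collagen, lies on the plus strand (chr6:4505368-4505617) with a box at -228.
Acta2: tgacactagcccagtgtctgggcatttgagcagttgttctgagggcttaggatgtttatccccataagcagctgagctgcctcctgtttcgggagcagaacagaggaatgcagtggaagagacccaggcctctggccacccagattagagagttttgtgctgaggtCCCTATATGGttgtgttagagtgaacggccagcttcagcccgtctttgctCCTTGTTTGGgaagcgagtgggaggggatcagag
Fbln2: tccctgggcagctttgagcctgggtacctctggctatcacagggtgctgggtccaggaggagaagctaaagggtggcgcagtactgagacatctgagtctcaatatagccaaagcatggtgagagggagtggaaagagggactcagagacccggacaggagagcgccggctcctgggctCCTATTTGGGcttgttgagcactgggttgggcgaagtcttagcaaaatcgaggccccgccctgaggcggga
Col1a2: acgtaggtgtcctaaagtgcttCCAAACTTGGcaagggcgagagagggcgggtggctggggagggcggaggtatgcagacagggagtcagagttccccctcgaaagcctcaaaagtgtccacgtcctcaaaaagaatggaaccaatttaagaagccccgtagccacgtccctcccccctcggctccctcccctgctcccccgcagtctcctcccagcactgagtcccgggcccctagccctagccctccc

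A CArG box was searched as CC, a core of 6 bases with at most 1 that is not A or T, and GG, on both strands. RefSeq promoters were found for 24 of the genes, 29 promoters in all. A box was present in 5 of the 29 (17.2%), those of Acta2, Col1a2, Col6a3, Fbln2 and Serpinf1, against 8.59% of the 32851 mouse promoters of the same length. CCAAT, on either strand, was in 7 of the 29 (24.1%, against 33.8% of all promoters). In the promoter of Serpinf1 a copy of it overlaps the CArG box and other copies lie outside the box. GGGCGG, on either strand, was in 11 (37.9%, against 32.7%), and TATAAA, on the strand of the gene, in 4 (13.8%, against 7.59%). A match describes the letters of the promoter and does not show a bound site. For the genes with a box, the log2 difference of 44-54 over 12-22 was 4.06 for Col1a2, 3.42 for Col6a3, 3.17 for Fbln2, 2.92 for Acta2 and 2.77 for Serpinf1. For the genes whose promoters held no box it ran from -0.23 (Fbln1) to 4.31 (Sparc). A link between the box and the range difference was not tested.

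The median signal of an array lay between 74.7 and 108.1. Of 13 macrophage markers, 13 lay above the median of their array on at least 4 arrays, as did 11702 of all 18193 genes. Of 7 T cell markers, 6 lay below it on all 18, as did 4477 of all genes, in a series labelled as immune cells. Among the 39 genes, 21 lay above the array median on all 18 arrays and 35 on at least 4. The 4 below that line, Lum, Fbln1, Mfap5 and Thy1, were dim in every range.

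The collagen, matrix and fibroblast genes were arranged by array-code range. Of the 39, 32 (82.1%) were higher in 44-54 than in 12-22, where 5.78% of all genes were higher. In 32-37 over 12-22, 28 of 39 were higher (71.8%, against 5.44% of all genes), and in 44-54 over 32-37, 30 of 39 (76.9%, against 4.55%). By limma, 0 of the 39 were lower in any of these 3 comparisons, where 4.69%, 3.64% and 5.02% of all genes were. At an unadjusted p under 0.05, 35, 31 and 34 of the 39 differed in either direction, against 4448, 4330 and 4257 of all 18193 genes. With every array centred on its median, 4.41% of all genes were higher and 7.14% lower in 44-54 over 12-22, and 3.17% higher and 7.09% lower in 44-54 over 32-37. The 3 comparisons share arrays, so their counts are not independent of each other. The median log2 difference of the genes was 2.77 for 44-54 over 12-22, 1.47 for 32-37 over 12-22 and 1.42 for 44-54 over 32-37, a 6.83-fold, 2.76-fold and 2.67-fold difference, where the median of all genes was 0.00, -0.01 and 0.02.

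The arrays of the ranges separated for most genes. All 6 arrays of 44-54 lay above all 6 of 12-22 for 31 of the 39, which held for 3.34% of all genes. All 6 of 32-37 lay above all 6 of 12-22 for 24 (2.3% of all genes), and all 6 of 44-54 above all 6 of 32-37 for 28 (2.27% of all genes). Averaged over the 39 genes on the log2 scale, an array of 44-54 had between 10.16 and 10.62, an array of 32-37 between 8.81 and 9.39, and an array of 12-22 between 7.65 and 7.99, so that these averages did not overlap. For the 32 genes higher in 44-54 than in 12-22, the mean signal in 32-37 was between 22.6% (Fbln2) and 171% (Thbs1) of that in 44-54, with a median of 34.6%. In 12-22 it was between 3.33% (Mgp) and 34.9% (Col12a1) of that in 44-54, with a median of 12.9%.

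**Figure D1:**
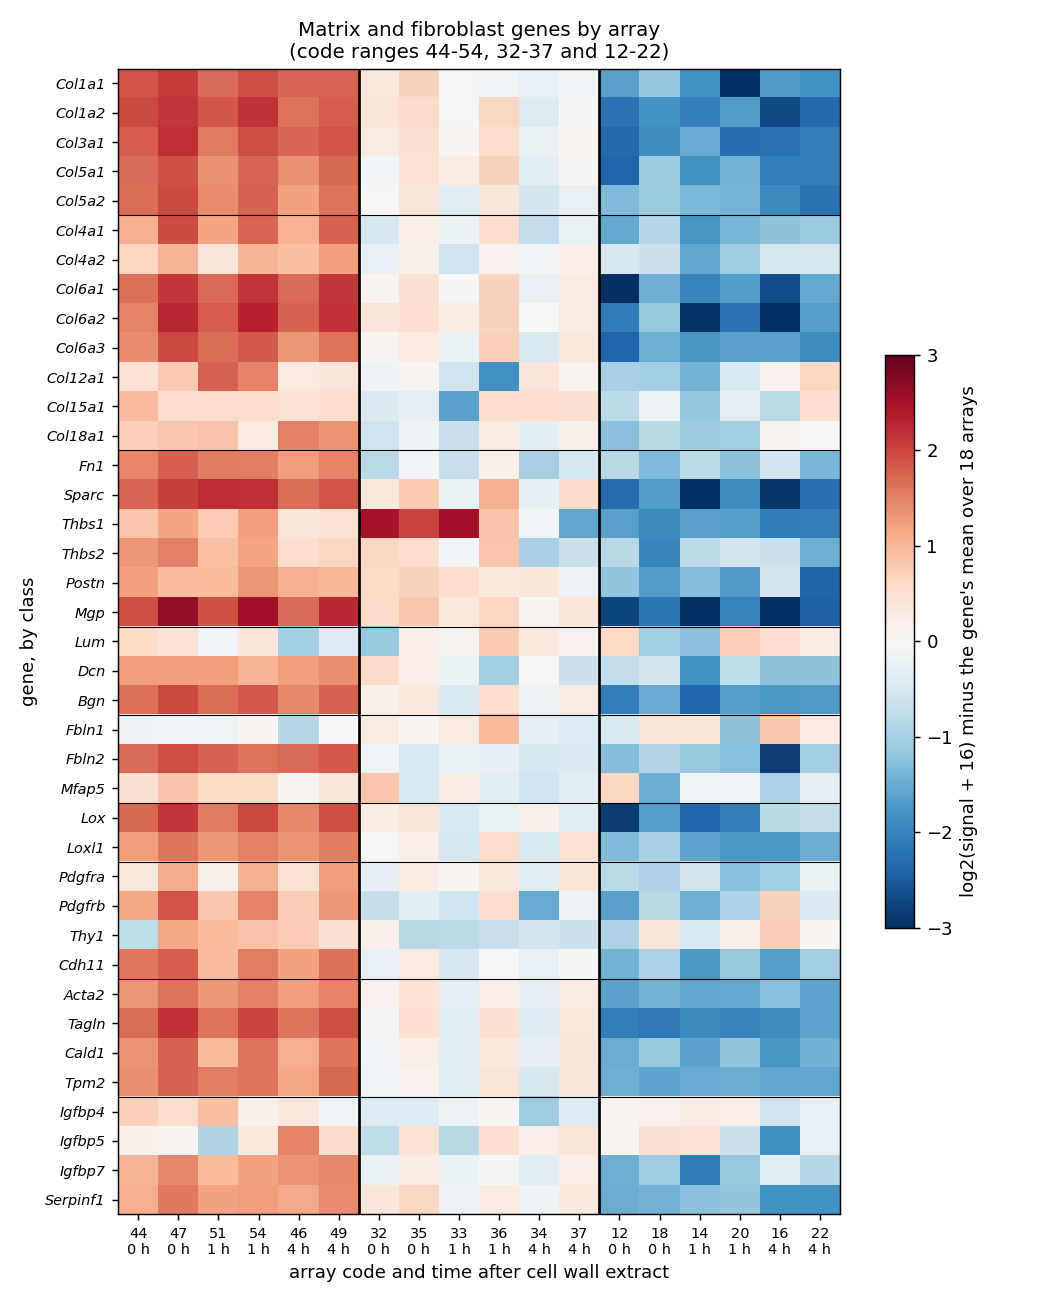
Each row is one of the 39 genes, grouped by role, and each column one of the 18 arrays, by range and then by time in hours, with colour for log2(signal + 16) minus the mean of the gene over all arrays and the colours limited to -3 and 3. Most rows are darkest red in 44-54 and darkest blue in 12-22, Thbs1 is darkest red on 3 arrays of 32-37, and Lum, Fbln1 and Igfbp4 show no such steps.

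**Figure D2:**
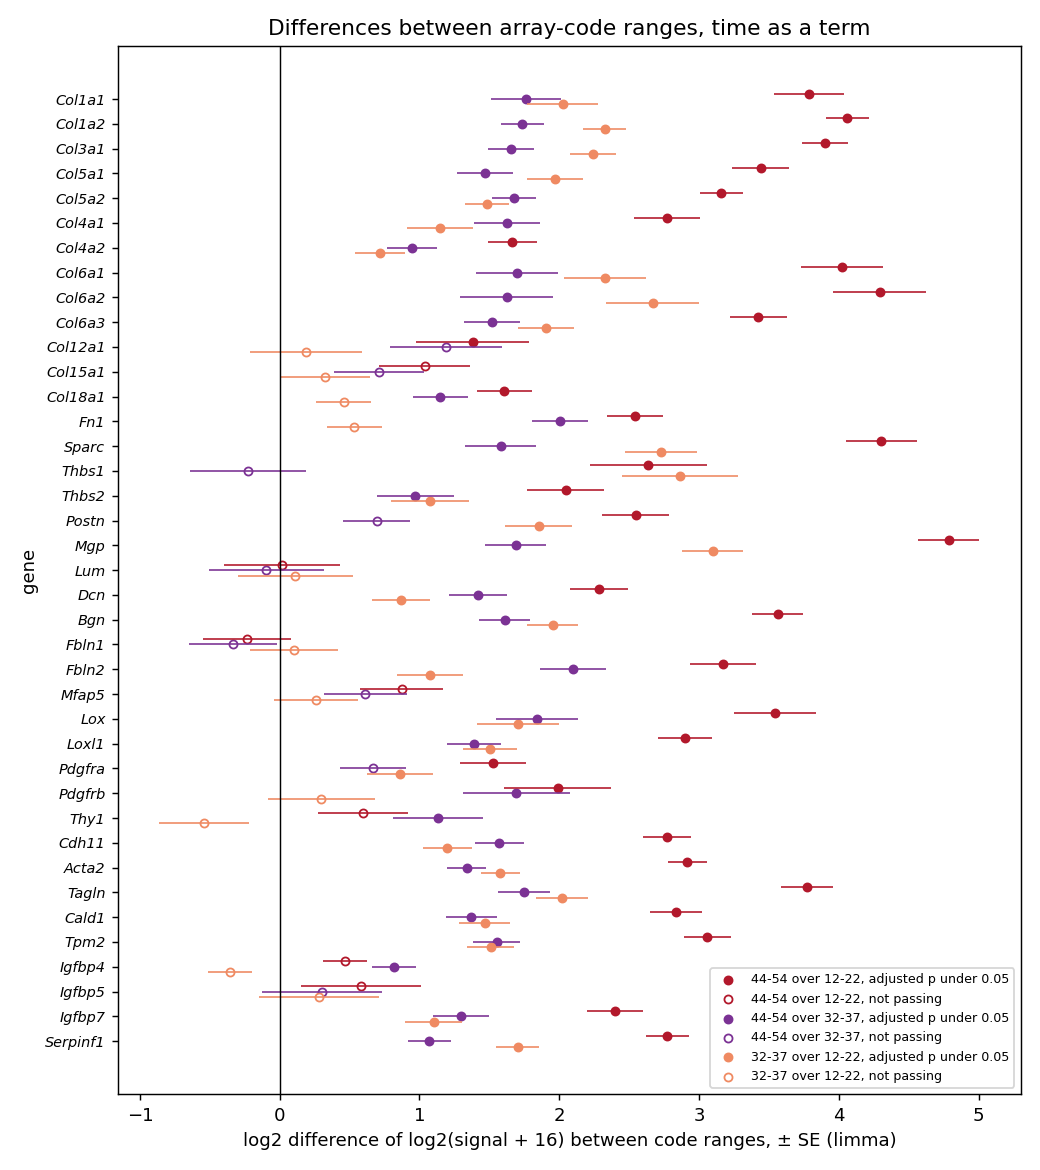
Points are the log2 differences of each gene between ranges, with bars of 1 standard error from the limma fit, and filled points have an adjusted p under 0.05. In 44-54 over 12-22 the differences run from -0.23 (Fbln1) to 4.79 (Mgp), and 32 of 39 are past the threshold.

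The 5 fibrillar collagen genes, whose chains form the tensile fibrils of connective tissue, were higher in 44-54 than in 12-22, higher in 32-37 than in 12-22 and higher in 44-54 than in 32-37. Their median log2 difference of 44-54 over 12-22 was 3.79. Col1a2, which encodes the alpha 2 chain of type I collagen, had lowest, median and highest signals of 4405, 5395 and 6407 in 44-54, 1049, 1664 and 2163 in 32-37 and 202, 309.8 and 430.1 in 12-22. No array of one range overlapped with an array of another. The log2 difference was 4.06 ± 0.15 (adjusted p = 3.24e-10) for 44-54 over 12-22, a 16.7-fold difference, 2.33 ± 0.15 (adjusted p = 6.66e-07) for 32-37 over 12-22, and 1.74 ± 0.15 (adjusted p = 9.03e-06) for 44-54 over 32-37.

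Col5a2, a chain of the type V collagen on which fibrils are started, had lowest, median and highest signals of 2011, 2774 and 3439 in 44-54, 589.6, 803 and 1141 in 32-37 and 179, 325 and 391 in 12-22. These ranges too did not overlap. In limma, 44-54 exceeded 12-22 by 3.16 ± 0.15 (adjusted p = 3.00e-09) and 32-37 exceeded 12-22 by 1.48 ± 0.15 (adjusted p = 4.05e-05). Col1a1, the partner chain of Col1a2, differed by 3.79 between 44-54 and 12-22, Col3a1, the chain of type III collagen, by 3.90, and Col5a1, the partner of Col5a2, by 3.44. The adjusted p of these 3 lay between 1.34e-09 and 6.33e-08.

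Among the 8 other collagens, 7 were higher in 44-54 than in 12-22, 5 in 32-37 than in 12-22 and 6 in 44-54 than in 32-37. The 3 chains of type VI collagen, which forms beaded filaments around cells, showed the largest differences of this class by the probe sets that stand for the genes. Col6a3 had lowest, median and highest signals of 2129, 2662 and 3350.1 in 44-54, 592, 962 and 1377 in 32-37 and 147, 251 and 289.9 in 12-22, without overlap between ranges. Its difference of 44-54 over 12-22 was 3.42 ± 0.20 (adjusted p = 1.86e-08), a 10.7-fold difference, and those of its partner chains were 4.03 for Col6a1 and 4.29 for Col6a2. A second probe set of Col6a2, above the array median on all 18 arrays, had a smaller difference of 2.09 ± 0.18. It gave 0.79 for 32-37 over 12-22, where the probe set that stands for the gene gave 2.67.

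The basement membrane collagens showed smaller differences. Col4a1 and Col4a2, which lie head to head in the genome and encode the chains of the type IV network, differed by 2.77 and 1.66 between 44-54 and 12-22 (adjusted p = 1.14e-06 and 1.20e-05) and were higher in each of the other range comparisons as well. Col18a1, the basement membrane collagen from which endostatin is cut, had lowest, median and highest signals of 2578, 3753 and 6003 in 44-54, 1302, 1776 and 2492 in 32-37 and 866, 1103 and 2219 in 12-22. All arrays of 44-54 lay above all of 12-22 and 32-37, but the arrays of 32-37 and 12-22 overlapped. The difference was 1.61 ± 0.20 (adjusted p = 5.95e-05) for 44-54 over 12-22 and 0.46 ± 0.20 (adjusted p = 0.192) for 32-37 over 12-22. Col12a1, which coats collagen fibrils, was higher in 44-54 than in 12-22 by 1.38 ± 0.40 (adjusted p = 0.0449) although the arrays overlapped, the only overlap among the 32 genes called in that comparison. A further probe set of Col12a1 passed in each range comparison, with 2.94 ± 0.26 (adjusted p = 1.69e-06) for 44-54 over 12-22 and 1.67 ± 0.26 (adjusted p = 0.00110) for 32-37 over 12-22. Its other further probe sets, above the array median on 0 arrays, passed in none. Col15a1, a relative of Col18a1, had a difference of 1.04 ± 0.32 (adjusted p = 0.061).

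All 6 matrix glycoproteins were higher in 44-54 than in 12-22, 5 in 32-37 than in 12-22 and 4 in 44-54 than in 32-37. Mgp, matrix Gla protein, an inhibitor of calcification made by fibroblasts, chondrocytes and vascular smooth muscle, had the largest difference of all 39 genes. Its lowest, median and highest signals were 2878, 3818 and 5493 in 44-54, 922, 1218 and 1549.9 in 32-37 and 78.9, 132 and 207 in 12-22, and no 2 ranges overlapped. The log2 difference was 4.79 ± 0.22 (adjusted p = 1.63e-09) for 44-54 over 12-22, a 27.6-fold difference, and 3.10 ± 0.22 (adjusted p = 1.33e-06) for 32-37 over 12-22. Sparc, a collagen-binding protein, followed with 4.31 ± 0.26 (adjusted p = 1.94e-08) for 44-54 over 12-22.

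Fn1 encodes fibronectin, through which cells hold on to the matrix. Its lowest, median and highest signals were 8912, 10604 and 12820.4 in 44-54, 1855, 2439 and 4139 in 32-37 and 1424, 1820.4 and 2491 in 12-22. The arrays of 44-54 stood apart from both other ranges, which overlapped with each other. Fn1 was higher in 44-54 by 2.54 ± 0.20 (adjusted p = 4.08e-07) over 12-22 and by 2.01 ± 0.20 (adjusted p = 2.16e-05) over 32-37, and its difference of 32-37 over 12-22 was 0.53 ± 0.20 (adjusted p = 0.128).

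Thbs1, thrombospondin 1, which can activate latent TGF-beta, ran differently. Its lowest, median and highest signals were 4218, 5574 and 7549 in 44-54, 1079, 9468 and 18421 in 32-37 and 729.8, 932 and 1034 in 12-22, so that the arrays of 32-37 lay both below and above those of 44-54. Thbs1 was higher than in 12-22 by 2.64 ± 0.42 (adjusted p = 6.86e-04) in 44-54 and by 2.86 ± 0.42 (adjusted p = 6.04e-04) in 32-37, and the difference of 44-54 over 32-37 was -0.23 ± 0.42 (adjusted p = 0.841). Thbs2, its relative, and Postn, periostin, a matrix protein of tissues under load, were higher in 44-54 than in 12-22 by 2.05 and 2.55 (adjusted p = 1.62e-04 and 3.15e-06). For Postn the difference of 44-54 over 32-37 was 0.69 ± 0.24 (adjusted p = 0.102).

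Of the 3 small leucine-rich proteoglycans, which bind collagen fibrils and limit their width, Bgn and Dcn were higher in each range comparison. Bgn, biglycan, had lowest, median and highest signals of 6147, 7489.9 and 8956 in 44-54, 1640.1, 2623 and 3230.2 in 32-37 and 422, 677 and 782 in 12-22, without overlap between ranges, and its difference of 44-54 over 12-22 was 3.56 ± 0.18 (adjusted p = 4.91e-09). Dcn, decorin, had 410.0, 488 and 539 in 44-54, 88.8, 181 and 298 in 32-37 and 44, 92.3 and 129 in 12-22. The arrays of 44-54 lay above those of both other ranges, while 32-37 and 12-22 overlapped, and the differences were 2.29 ± 0.21 (adjusted p = 2.23e-06) for 44-54 over 12-22 and 0.87 ± 0.21 (adjusted p = 0.0187) for 32-37 over 12-22. The second of these was not past the threshold with all probe sets of the gene averaged (adjusted p = 0.174). Lum, lumican, was dim everywhere, with lowest, median and highest signals of 8.67, 40.3 and 61.3 in 44-54, 7.27, 41.1 and 72.4 in 32-37 and 5.4, 49.6 and 67.9 in 12-22. The ranges of Lum overlapped throughout and its difference of 44-54 over 12-22 was 0.02 ± 0.41 (adjusted p = 0.989), the smallest of the 39 genes in size.

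The fibulins parted in the same way. Fbln2, a fibulin of fibroblasts and vessel walls, had lowest, median and highest signals of 1349, 1464 and 1668 in 44-54, 299, 330.0 and 395 in 32-37 and 46.4, 175 and 226 in 12-22. No 2 of its ranges overlapped, and it was higher by 3.17 ± 0.24 (adjusted p = 2.28e-07) in 44-54 over 12-22 and by 2.10 ± 0.24 (adjusted p = 5.44e-05) in 44-54 over 32-37. With its probe sets averaged, 32-37 over 12-22 did not pass (adjusted p = 0.0648). Fbln1, fibulin 1, had 25.6, 53.96 and 62.2 in 44-54, 40.7, 68.3 and 128 in 32-37 and 16.7, 79.6 and 115 in 12-22, with overlap between all ranges, and a difference of -0.23 ± 0.32 (adjusted p = 0.748) for 44-54 over 12-22. Mfap5, a microfibril protein, was at 48.7, 74.9 and 97.2 in 44-54 and 6.35, 38.8 and 80.3 in 12-22, with a difference of 0.87 ± 0.30 (adjusted p = 0.0887).

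Both lysyl oxidase genes, whose enzymes cross-link collagen and elastin, were higher in every range comparison. Lox had lowest, median and highest signals of 2976, 3894 and 4915 in 44-54, 793, 1077 and 1437 in 32-37 and 137, 293 and 658 in 12-22, and Loxl1 had 1290.2, 1469 and 1659.9 in 44-54, 366, 579 and 795 in 32-37 and 150.2, 174 and 263 in 12-22. For neither gene did any 2 ranges overlap. The differences of 44-54 over 12-22 were 3.54 ± 0.29 (adjusted p = 8.12e-07) for Lox and 2.90 ± 0.19 (adjusted p = 6.45e-08) for Loxl1. With all probe sets of Loxl1 averaged, its difference of 32-37 over 12-22 did not pass (adjusted p = 0.0531).

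Among 4 receptors and adhesion molecules of the fibroblast surface, 3 were higher in 44-54 than in 12-22. Cdh11, the cadherin by which mesenchymal cells join each other, had lowest, median and highest signals of 2598, 4027 and 4720.0 in 44-54, 959, 1229 and 1679.8 in 32-37 and 398, 554 and 694 in 12-22, without overlap, and differed by 2.77 ± 0.17 (adjusted p = 3.25e-08). Pdgfrb, the PDGF receptor of pericytes and fibroblasts, had 881, 1254 and 1982 in 44-54, 174, 381 and 765 in 32-37 and 159.6, 275 and 865 in 12-22. The highest array of 12-22 lay just under the lowest of 44-54 and above the median of 32-37, and the differences were 1.99 ± 0.38 (adjusted p = 0.00358) for 44-54 over 12-22 and 0.30 ± 0.38 (adjusted p = 0.738) for 32-37 over 12-22. Pdgfra, the receptor that marks many tissue fibroblasts, was higher in 44-54 than in 12-22 by 1.53 ± 0.24 (adjusted p = 5.79e-04). Thy1, a surface protein of fibroblasts and mouse T cells, did not pass there, with 0.59 ± 0.32 (adjusted p = 0.317), and was higher in 44-54 than in 32-37 by 1.13 ± 0.32 (adjusted p = 0.0439).

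All 4 contractile and actin-binding genes were higher in each range comparison, with a median log2 difference of 2.99 for 44-54 over 12-22. Acta2, the actin of smooth muscle and myofibroblasts, had lowest, median and highest signals of 12358, 13734 and 15901 in 44-54, 4253, 5817 and 6994 in 32-37 and 1679, 1765 and 2114 in 12-22. Its ranges did not overlap, and it was higher by 2.92 ± 0.14 (adjusted p = 2.80e-09) in 44-54 over 12-22, by 1.58 ± 0.14 (adjusted p = 9.46e-06) in 32-37 over 12-22 and by 1.34 ± 0.14 (adjusted p = 3.00e-05) in 44-54 over 32-37. Cald1, caldesmon, an actin-binding protein that restrains myosin, had 6894, 9973 and 12217 in 44-54, 2740.0, 3718 and 4617 in 32-37 and 1038, 1274 and 1604 in 12-22, again without overlap, and differed by 2.84 ± 0.18 (adjusted p = 4.48e-08) between 44-54 and 12-22. Tagln, transgelin, and Tpm2, a tropomyosin, both of which bind actin filaments, differed by 3.77 and 3.06 (adjusted p = 3.02e-09 and 8.76e-09). Some of these calls were lost when further, in part dim, probe sets were averaged in. The further probe sets of Acta2 lay above the array median on 0 of 18 arrays, where the one that stands for it did on 18. Those of Cald1 lay above it on between 0 and 18 arrays. With all probe sets of a gene averaged, the difference of Acta2 did not pass for 32-37 over 12-22 (adjusted p = 0.132) nor for 44-54 over 32-37 (adjusted p = 0.157), and that of Cald1 did not pass for 32-37 over 12-22 (adjusted p = 0.0661).

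Of the 4 secreted binding proteins, Serpinf1 and Igfbp7 were higher in each range comparison. Serpinf1, pigment epithelium-derived factor, an inhibitor of vessel growth, had lowest, median and highest signals of 1641, 1812 and 2292 in 44-54, 667, 945 and 1186 in 32-37 and 206, 269 and 324 in 12-22, without overlap, and a difference of 2.77 ± 0.16 (adjusted p = 1.06e-08) for 44-54 over 12-22. Igfbp7, a more distant relative of the insulin-like growth factor binding proteins, differed by 2.40 ± 0.20 (adjusted p = 9.90e-07). Igfbp4, which binds insulin-like growth factors and is made by many cell types, did not follow this order. It had 6711, 9624 and 13325 in 44-54, 3396, 5424 and 7414 in 32-37 and 4624, 7559 and 8336 in 12-22, with overlap between all ranges. Igfbp4 was higher in 44-54 than in 32-37 by 0.82 ± 0.16 (adjusted p = 0.00395), while its differences were 0.47 ± 0.16 (adjusted p = 0.0846) for 44-54 over 12-22 and -0.35 ± 0.16 (adjusted p = 0.209) for 32-37 over 12-22. Its difference of 44-54 over 12-22 passed in 6 of 26 alternatives, among them quantile normalization (adjusted p = 0.0335) and averaged probe sets (adjusted p = 0.0336). A further probe set of Igfbp4 was higher in 44-54 than in 12-22, by 0.71 (adjusted p = 0.0341). One of its 5 further probe sets was lower in 32-37 than in 12-22, with a difference of -1.39 (adjusted p = 0.032), the only further probe set of the 51, from 30 of the genes, that was lower in a range comparison. Of the 51, 30 were higher in 44-54 over 12-22 (4.94% of all probe sets were). In 32-37 over 12-22, 17 were higher (3.98%), and in 44-54 over 32-37, 28 (3.81%). The others did not pass. Igfbp5, a related binding protein, had a difference of 0.59 ± 0.43 (adjusted p = 0.492) for 44-54 over 12-22.

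Genes of the same pathway outside the list were also compared. These lists were chosen with results of these data known. For the counts that follow, 5.78% of all genes were higher in 44-54 than in 12-22. Of 16 enzymes that fold, trim or export collagen, 10 were higher in 44-54 than in 12-22, among them Pcolce, which aids the trimming of procollagen (3.78 ± 0.17, adjusted p = 1.63e-09), and Serpinh1, the collagen chaperone (3.62 ± 0.26, adjusted p = 1.55e-07). Among 21 further matrix proteins 10 were higher, with Tnc, tenascin C, at 3.75 ± 0.20, adjusted p = 8.18e-09, and Ltbp1, which tethers latent TGF-beta, at 2.98 ± 0.32, adjusted p = 1.51e-05. Basement membrane proteins were higher for 6 of 10, with Nid1, nidogen, at 3.15 ± 0.21, adjusted p = 5.99e-08, and Lamb1, a laminin chain, at 2.47 ± 0.23, adjusted p = 2.42e-06. Of 12 matricellular and TGF-beta response genes 9 were higher, with Timp3, a protease inhibitor held in the matrix, at 4.31 ± 0.19, adjusted p = 1.38e-09, and Ccn2, connective tissue growth factor, at 3.20 ± 0.23, adjusted p = 1.75e-07. Transcription factors and signalling genes of fibroblasts were higher for 9 of 18, with S1pr3, a sphingosine phosphate receptor, at 3.74 ± 0.27, adjusted p = 1.46e-07, and Prrx1, a mesenchymal homeobox factor, at 3.49 ± 0.20, adjusted p = 1.06e-08. The median log2 differences of these 5 lists lay between 0.68 and 2.08 in that comparison, and 0 of their genes were lower by limma, where 4.69% of all genes were. At an unadjusted p under 0.05, 13, 12, 7, 9 and 11 of their genes differed, and 4448 of all 18193 genes did. In 32-37 over 12-22 the lists had 4, 6, 3, 6 and 7 genes higher (5.44% of all genes were) and 1 lower (3.64%), Crtap at -0.71 (adjusted p = 0.00413). In 44-54 over 32-37 they had 6, 8, 2, 7 and 6 higher (4.55% of all genes) and 2 lower (5.02%). The 2 were Tgfbi at -0.53 (adjusted p = 0.0197) and Nt5e at -1.08 (adjusted p = 0.0428). The lower genes are named here after their values were seen.

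Markers of other cell types were read on the same arrays, where 5.78% of all genes were higher in 44-54 than in 12-22. Smooth muscle and pericyte markers were higher in 44-54 than in 12-22 for 5 of 9, led by Myl9, a myosin light chain (3.72 ± 0.14, adjusted p = 3.24e-10), and Actg2, an enteric smooth muscle actin (2.92 ± 0.22, adjusted p = 2.50e-07), while Myh11, the myosin heavy chain of mature smooth muscle, had a difference of -0.28 and Des, desmin, of -0.44, neither past the threshold. Endothelial markers were higher for 3 of 11, led by Emcn, endomucin (2.34 ± 0.36, adjusted p = 5.11e-04). For mesothelial and epithelial markers, 0 of 11 passed in limma and 0 had an unadjusted p under 0.05, where 4448 of all 18193 genes did. Of the 11, 6 were below the array median on all arrays, as were 4477 of all genes.

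Some immune cell and growth markers also differed between the ranges. Neutrophil markers were lower in 44-54 than in 12-22 for 6 of 12, where 4.69% of all genes were lower, led by S100a9 (-3.52 ± 0.28, adjusted p = 5.43e-07) and S100a8 (-2.80 ± 0.25, adjusted p = 2.19e-06), the calprotectin subunits. In 32-37 over 12-22, 3 of the 12 were lower (3.64% of all genes) and 0 higher (5.44%). In 44-54 over 32-37, 4 were lower (5.02%) and 1 was higher (4.55%). Averaged over the 12, the log2 signal lay between 6.31 and 7.07 on arrays of 44-54, between 6.97 and 7.51 on arrays of 32-37 and between 7.77 and 8.35 on arrays of 12-22. Cell cycle genes were lower in 44-54 than in 12-22 for 11 of 18 (4.69% of all genes) and lower in 44-54 than in 32-37 for 13 of 18 (5.02%). In 32-37 over 12-22, 11 of 18 were higher (5.44%) and 1 was lower (3.64%). Their average lay between 9.53 and 10.34 in 44-54, between 11.32 and 11.81 in 32-37 and between 9.94 and 11.36 in 12-22, so its order of ranges was not that of the matrix genes. Of the macrophage markers, 1 of 13 was higher in 44-54 than in 12-22 (Mrc1, the mannose receptor, 0.64 ± 0.16, adjusted p = 0.019), where 5.78% of all genes were higher. In 32-37 over 12-22, 2 were higher (5.44% of all genes), and in 44-54 over 32-37, 2 were higher (4.55%) and 1 was lower (5.02%). The average of the 13 lay between 12.46 and 12.80 in 44-54, between 12.48 and 12.80 in 32-37 and between 12.33 and 12.48 in 12-22. The part of these markers in the range differences of the matrix genes was not tested.

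**Figure D3:**
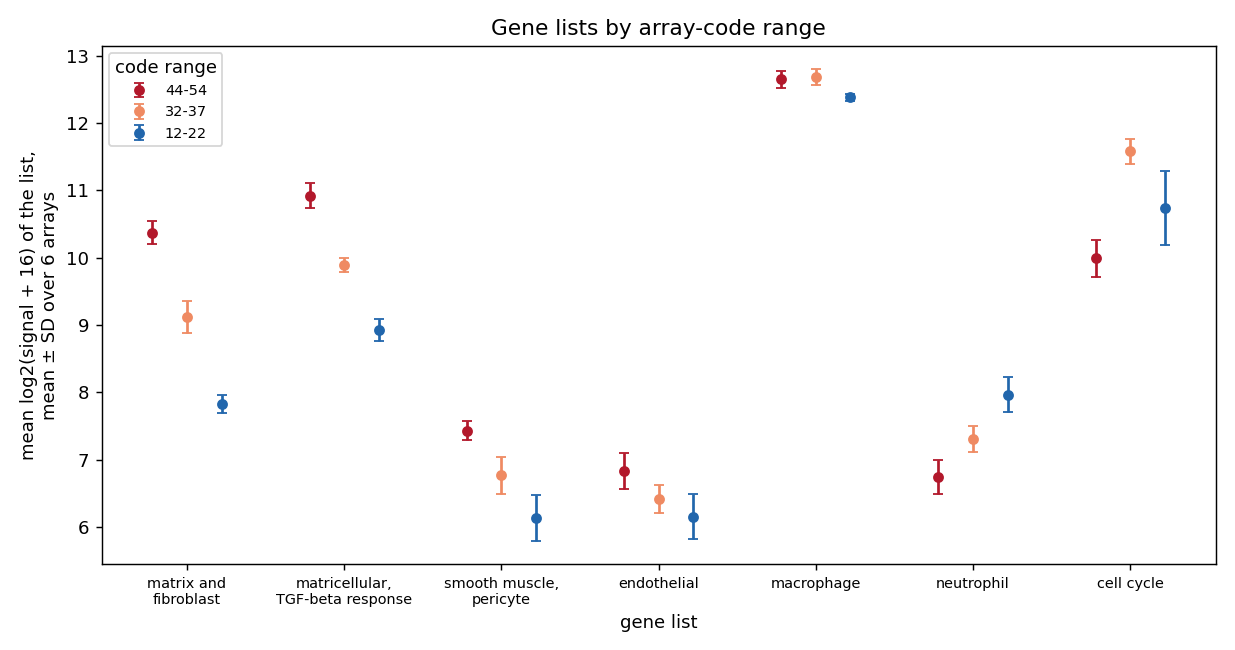
Points give the mean of 6 arrays per code range, and bars its SD, of the mean log2(signal + 16) over the measured genes of each list. The 39 matrix and fibroblast genes average 10.37 in 44-54, 9.12 in 32-37 and 7.83 in 12-22, while the neutrophil markers are highest in 12-22 (7.96) and the cell cycle genes in 32-37 (11.58).

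The range differences were present at each time taken alone, with 2 arrays against 2 and the spread shared over the 9 combinations of range and time. For 44-54 over 12-22, 29 of the 39 genes were higher at 0 h (where 1.52% of all genes were), 29 at 1 h (1.67%) and 27 at 4 h (2.24%). The counts were smaller for 32-37 over 12-22, with 14 at 0 h (0.643%), 15 at 1 h (0.978%) and 13 at 4 h (1.63%), and for 44-54 over 32-37, with 6 (0.731%), 7 (0.649%) and 5 (0.313%). The median difference of 44-54 over 12-22 was 2.78 at 0 h, 2.68 at 1 h and 2.56 at 4 h. For Col1a2 it was 4.06 at 0 h, 3.88 at 1 h and 4.24 at 4 h, so the samples labelled time zero carried it too.

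Few of these genes differed between the times. At 1 h over 0 h, 0 of 39 passed the limma threshold, where 0.495% of all genes did, and 2 had an unadjusted p under 0.05, where 1230 of all 18193 genes did. The lowest adjusted p was 0.389, for Dcn, with a difference of -0.59 ± 0.21. At 4 h over 0 h, 1 of 39 was higher (8.17% of all genes were) and 3 were lower (17.6% of all genes were), and the remaining 35 did not pass. At 4 h over 1 h, 1 was higher (6.48% of all genes) and 2 were lower (14.3%). With the lower and the higher array code of each range and time taken as a block, a fit added after the data were seen, 1 was higher and 5 were lower at 4 h over 0 h (8.62% and 19.4% of all genes), with Igfbp4 (adjusted p = 0.0203) and Mgp (adjusted p = 0.0204) beside the 3, and 2 were higher and 3 lower at 4 h over 1 h (6.94% and 15.7%), with Col4a2 and Col5a2 added. With all probe sets of a gene averaged, the genes lower at 4 h over 0 h were Col5a2, Fn1, Igfbp4 and Serpinf1. The share of all genes lower with averaged probe sets is not given (it was 17.6% without averaging), so this list is not read further. The median of all genes was itself -0.15 at 4 h over 0 h on the deposited scale, and that of the 39 genes was -0.16. With every array centred on its median, both were 0.10, 0 of the 39 were lower at 4 h than at 0 h, and of all genes 13.5% were higher and 8.03% lower at 4 h than at 0 h, and 11.3% higher and 6.21% lower at 4 h than at 1 h. With quantile normalization, 9.39% of all genes were higher and 13.0% lower at 4 h than at 0 h, and 7.24% higher and 9.76% lower at 4 h than at 1 h.

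**Figure D4:**
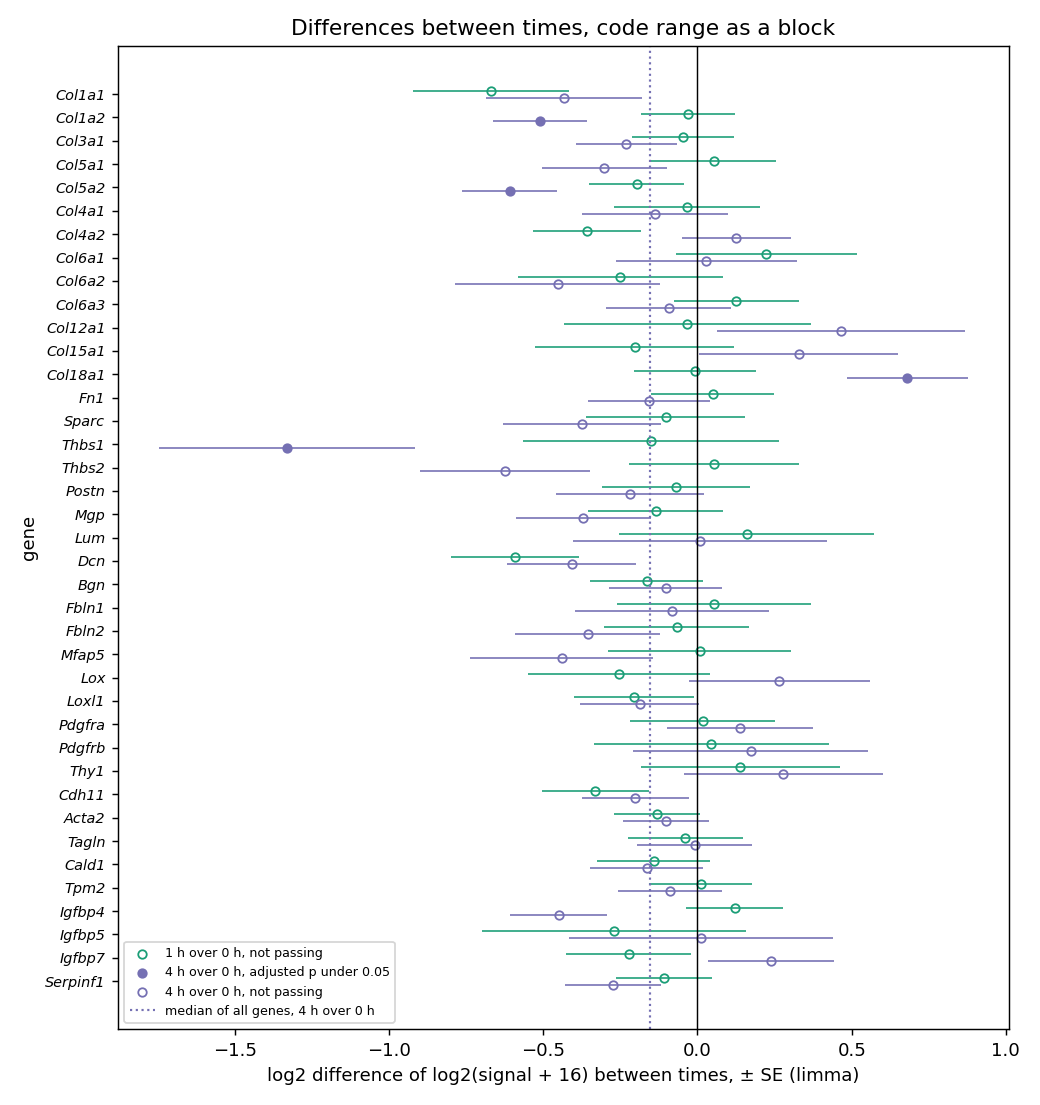
Points are the log2 differences of each gene between times, with range as a block and bars of 1 standard error from the limma fit; filled points have an adjusted p under 0.05. At 4 h over 0 h, Col18a1 lies at 0.68 and Col1a2, Col5a2 and Thbs1 at -0.51, -0.61 and -1.33, and the other 35 genes are not past the threshold.

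Col18a1 was the gene that rose. Its signals were 3465 and 3686 at 0 h, 3819 and 2578 at 1 h and 6003 and 5336 at 4 h in 44-54. In 32-37 they were 1371 and 1878 at 0 h, 1302 and 2492 at 1 h and 1674 and 2356 at 4 h, and in 12-22 they were 866 and 1176 at 0 h, 987 and 1029.9 at 1 h and 2219 and 2075 at 4 h. In 44-54 and 12-22 both arrays at 4 h lay above both at 0 h, while in 32-37 they overlapped. The difference was 0.68 ± 0.20 (adjusted p = 0.0203) for 4 h over 0 h and 0.69 ± 0.20 (adjusted p = 0.0241) for 4 h over 1 h. Within ranges, 4 h over 0 h was 0.66 in 44-54, 0.31 in 32-37 and 1.08 in 12-22 (adjusted p = 0.0678 in 12-22). A second probe set of the gene rose by 0.54 (adjusted p = 0.0202). The call for 4 h over 0 h was lost without array 12 (adjusted p = 0.0536) or array 16 (adjusted p = 0.0526), and that for 4 h over 1 h with quantile normalization (adjusted p = 0.0510) and without array 54, 33, 20, 14, 46, 22 or 16, with adjusted p between 0.0503 and 0.0620.

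The fibrillar collagens Col1a2 and Col5a2 were lower at 4 h. For Col1a2 the signals were 4405 and 5001 at 4 h, against 5602 and 6238 at 0 h, in 44-54, 1049 and 1437 at 4 h, against 1891 and 2102 at 0 h, in 32-37 and 202 and 269 at 4 h, against 290.3 and 396 at 0 h, in 12-22, and in each range both arrays at 4 h lay below both at 0 h. The difference was -0.51 ± 0.15 (adjusted p = 0.0236), and it was -0.48 ± 0.15 (adjusted p = 0.0407) for 4 h over 1 h. For Col5a2 the signals were 2011 and 2723 at 4 h, against 2824 and 3439 at 0 h, in 44-54, 589.6 and 731 at 4 h, against 875 and 1141 at 0 h, in 32-37 and 218 and 179 at 4 h, against 334 and 391 at 0 h, in 12-22, with the arrays at 4 h again the lower in each range. The difference was -0.61 ± 0.15 (adjusted p = 0.00935). With each array centred on its median, neither passed (adjusted p = 0.274 for Col1a2 and 0.103 for Col5a2), and the call for Col1a2 was also lost with all probe sets averaged (adjusted p = 0.0824) and without array 35, 18, 34 or 16, with adjusted p between 0.0562 and 0.0600. For 4 h over 1 h the call for Col1a2 was lost with the arrays centred (adjusted p = 0.340), with quantile normalization (adjusted p = 0.0748), with averaged probe sets (adjusted p = 0.108) and without array 47, 32, 44, 54, 36, 20, 14, 46, 34 or 16 (adjusted p between 0.0501 and 0.0999).

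Igfbp4 was lower at 4 h than at 1 h. Its signals were 11612 and 10209.8 at 0 h, 13325 and 7868 at 1 h and 9038 and 6711 at 4 h in 44-54. In 32-37 they were 5409 and 5439.6 at 0 h, 6245 and 7414 at 1 h and 3396 and 5334 at 4 h, and in 12-22 they were 7332 and 7785 at 0 h, 8336 and 8158 at 1 h and 4624 and 6013 at 4 h. Both arrays at 4 h lay below both at 1 h in 32-37 and 12-22, and they overlapped in 44-54. The difference of 4 h over 1 h was -0.57 ± 0.16 (adjusted p = 0.0192), and 4 h over 0 h gave -0.45 ± 0.16 (adjusted p = 0.0516). The first of these calls was lost with the arrays centred (adjusted p = 0.231) and without array 51 (adjusted p = 0.05004), while 4 h over 0 h passed with averaged probe sets (adjusted p = 6.25e-04). All 5 of its further probe sets fell at 4 h over 0 h, with log2 differences between -1.49 and -0.58 and adjusted p between 0.00520 and 0.0273. A second probe set of Fn1 fell too (-0.93, adjusted p = 0.00231), whereas the probe set that stands for Fn1 had -0.16 ± 0.20 (adjusted p = 0.655). Ccn2, a TGF-beta response gene outside the list, was lower at 4 h than at 0 h, with a difference of -0.72 (adjusted p = 0.0359). Of the 12 matricellular and TGF-beta response genes, 3 were lower at 4 h than at 0 h (17.6% of all genes were) and 1 was higher (8.17%).

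Thbs1 had the largest fall among the 39 genes, and within ranges it passed in 32-37 only. A difference of the fall between ranges did not pass in the limma interaction terms (lowest adjusted p = 0.184). Signals of Thbs1 were 5704 and 7327 at 0 h, 5445 and 7549 at 1 h and 4218 and 4434 at 4 h in 44-54. In 32-37 they were 18019 and 13104 at 0 h, 18421 and 5832 at 1 h and 2976 and 1079 at 4 h, and in 12-22 they were 1033 and 846 at 0 h, 1034 and 1018 at 1 h and 729.8 and 750.3 at 4 h. The arrays of 32-37 at 0 h and 1 array at 1 h were the highest of the series, and those at 4 h fell to levels between those of 12-22 and 44-54. Over all ranges the difference of 4 h over 0 h was -1.33 ± 0.42 (adjusted p = 0.0299). Within ranges it was -0.58 ± 0.51 (adjusted p = 0.609) in 44-54, -3.09 ± 0.51 (adjusted p = 0.00535) in 32-37, where 3.52% of all genes were lower, and -0.33 ± 0.51 (adjusted p = 0.786) in 12-22. The call over all ranges was lost with the arrays centred (adjusted p = 0.0980), with averaged probe sets (adjusted p = 0.0627) and without array 32, 35 or 34, with adjusted p between 0.0622 and 0.0771, and a second probe set of Thbs1 had -1.39 (adjusted p = 0.107).

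Lox was higher at 4 h than at 0 h in 12-22. Its signals in 12-22 were 137 and 338 at 0 h, 199 and 249 at 1 h and 608 and 658 at 4 h, and both arrays at 4 h were above all 4 of the others. In 44-54 they were 3659.7 and 4915 at 0 h, 3259 and 4393 at 1 h and 2976 and 4128 at 4 h, and in 32-37 they were 1273 and 1437 at 0 h, 793 and 943 at 1 h and 1212 and 852 at 4 h, with overlap between 0 h and 4 h in 44-54. Within ranges, 4 h over 0 h was 1.48 ± 0.37 (adjusted p = 0.0274) in 12-22, where 4.16% of all genes were higher, -0.27 ± 0.37 (adjusted p = 0.757) in 44-54 and -0.41 ± 0.37 (adjusted p = 0.622) in 32-37. Over all ranges it was 0.27 ± 0.29 (adjusted p = 0.598).

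**Figure D5:**
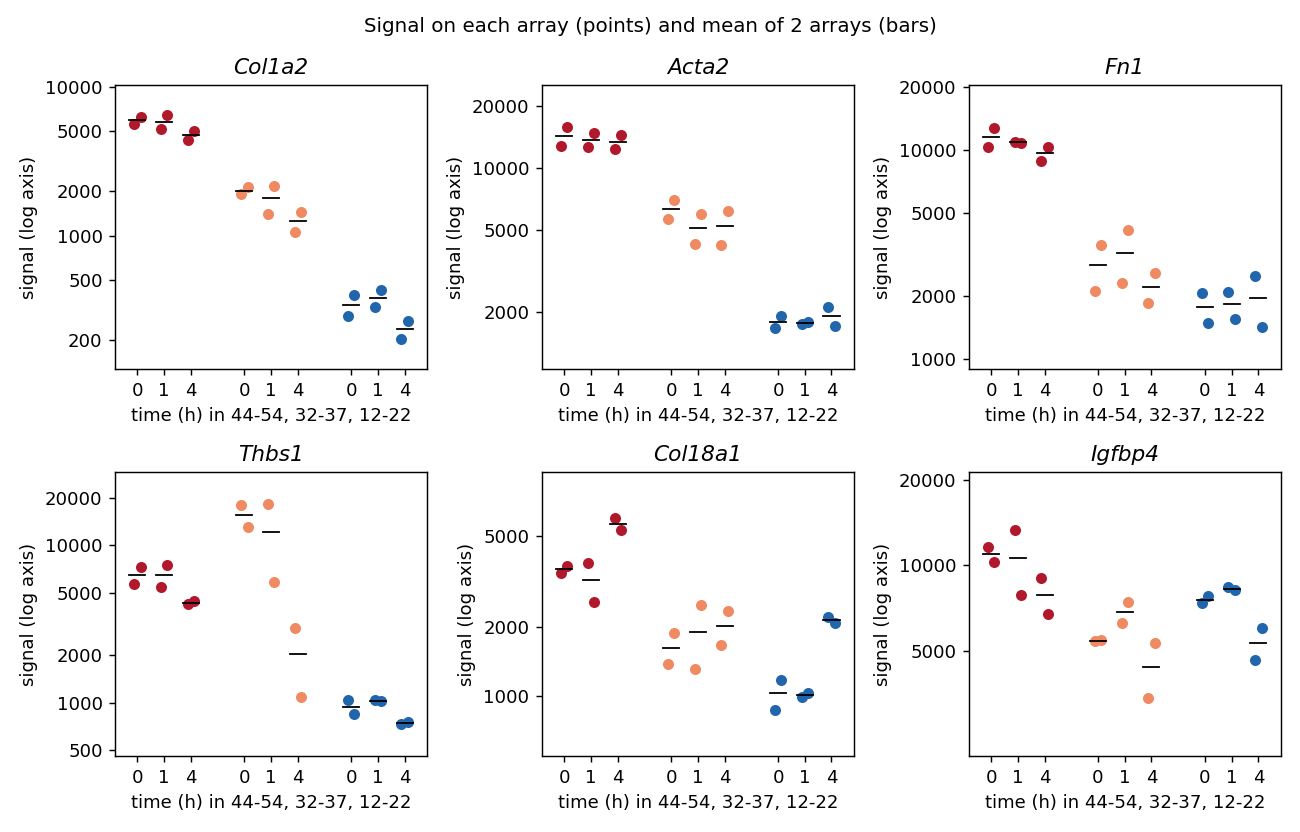
Panels show Col1a2, Acta2, Fn1, Thbs1, Col18a1 and Igfbp4, with 1 point per array and a bar for the mean of 2 arrays, as deposited signal on a log axis, by time in hours within 44-54 (red), 32-37 (orange) and 12-22 (blue). Col1a2 and Acta2 keep their 3 ranges apart at each time, Thbs1 is lower at 4 h in 32-37 (2976 and 1079, against 18019 and 13104 at 0 h), and Igfbp4 overlaps between ranges.

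Whether the time response differed between ranges was tested with 6 interaction terms, and 0 of the 39 genes passed in any of them. Of all genes, 0.0% passed for 44-54 against 12-22, 0.451% for 32-37 against 12-22 and 0.0055% for 44-54 against 32-37 in 4 h over 0 h, and 0.0% in the 3 terms of 1 h over 0 h. At an unadjusted p under 0.05, 4 of the 39 genes differed between 44-54 and 12-22 in 4 h over 0 h, 3 between 32-37 and 12-22 and 1 between 44-54 and 32-37. In 1 h over 0 h, 0, 1 and 1 did so. The share of all genes at this unadjusted threshold is not given for these terms, so the counts are not read further. The lowest adjusted p of the genes was that of Thbs1 for 32-37 against 12-22 in 4 h over 0 h, at -2.76 ± 0.72 (adjusted p = 0.184). For Lox the same term gave -1.88 ± 0.52 (adjusted p = 0.205), and 44-54 against 12-22 gave -1.75 ± 0.52 (adjusted p = 0.525). The falls and rises of Thbs1 and Lox within a range are therefore not shown to differ from those in the other ranges.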

How the data were processed

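The deposited values are probe set intensities on a linear scale, 1 value per probe set and array, made with MAS5 and GCOS, Affymetrix's software, per the submitters' processing notes, which give no version. Every array of the deposited table had a mean of 499.8 when the lowest 2 percent and the values above the 98th percentile were left out, so a broad shift in signals appears as a shift of the array medians. All columns were used. Probe sets were named from the platform annotation: of 45101, 64 are controls, 34945 carry a single symbol (34741 matched RefSeq GRCm38.p6), 932 several and 9160 none. Promoters are from RefSeq.

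Samples were grouped by the time and the array code in their labels. R 4.3.3 with limma 3.58.1 (lmFit and eBayes) was fitted to log2(signal + 16) of 45037 probe sets with terms for time and range, and again to the 9 means of range and time for differences within a range or time and for interactions. P-values were adjusted over all probe sets (Benjamini-Hochberg), with a threshold of 0.05. The fit was tested on simulated data. No filter on dim probe sets was used, because a filter that 1 range can satisfy would keep genes through that range alone. With a filter (above the median of the array on at least 4 of 18 arrays) 35 of the 39 genes and 11702 of all 18193 remain. Other pseudocounts, scalings, fits, probe set averages and the omission of single arrays were alternatives, and a block on array code order within range was added after the data were seen. Tables and plots were made with Python 3.11.15, pandas 2.3.3 and matplotlib 3.10.9.

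The genes, the marker lists and the tests were chosen with earlier results of these data known. Lowest, median and highest signals are given for the 2 brightest genes of each class and the genes with the largest and smallest difference of 44-54 over 12-22, and per-array signals for genes past the threshold in a time comparison. From each other list up to 2 genes are named, those past the threshold with the largest difference of 44-54 over 12-22, or the 2 brightest where none passed. Mfap5, Igfbp4, Lox, Myh11, Des, Ccn2 at 4 h and the genes with lower calls in the matrix lists are described further because of their values.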

Additional observations from a re-analysis of the deposited data

Results flagged for a closer look

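Among 126 groups of 6 arrays, 3 had 1 array whose distance to the nearest of the others was over 0.625 of the range of the group, where chance gives about 1 in 20. Lum had a signal of 7.27 on array 32 of 32-37, at 0 h, against 38.4 to 72.4 on the other arrays of that range. Fbln1 had a signal of 25.6 on array 46 of 44-54, at 4 h, against 51.5 to 62.2 on the others. Fbln2 had a signal of 46.4 on array 16 of 12-22, at 4 h, against 163 to 226 on the others. Lum lay above the median of its array on 0 of 18 arrays and Fbln1 on 2, and neither passed the limma threshold in a range or time comparison. The call for Fbln2, higher in 44-54 than in 12-22, passed under every alternative that left out a single array.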

How the results depend on the processing

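For 44-54 over 12-22 the count of higher genes (32) stayed between 31 and 33 when single arrays were left out, and that of lower genes was 0 throughout; the median log2 difference (2.77) was between 2.71 and 2.85 without single arrays, 2.58 with a pseudocount of 64, 2.21 with all probe sets of a gene averaged, and 2.56 at 4 h alone. For 32-37 over 12-22 (28 higher, median 1.47) single arrays moved the count between 25 and 28 and the median between 1.37 and 1.55, averaged probe sets gave a median of 0.96 and 1 gene lower (Igfbp4), and the count was 14 at 0 h, 15 at 1 h and 13 at 4 h alone. For 44-54 over 32-37 (30 higher, median 1.42) single arrays moved the count between 28 and 31 and the median between 1.38 and 1.53, averaged probe sets gave 1.19, and the count was 6 at 0 h, 7 at 1 h and 5 at 4 h alone; comparisons within a time rest on 2 arrays against 2. Averaged probe sets also ended the calls of Dcn, Fbln2, Loxl1, Acta2 and Cald1 for 32-37 over 12-22 and of Acta2 for 44-54 over 32-37. Their further probe sets lay above the array median on 0 of 18 arrays for Dcn and Acta2, on 1 for Fbln2 and Loxl1 and on between 0 and 18 for Cald1. The cause of the lost calls was not tested. Arrays centred on their median gave range medians of 2.67, 1.48 and 1.31. At 4 h over 0 h the count of 1 higher gene was 0 with time alone and within 44-54 and 32-37, and between 0 and 1 without single arrays (0 without array 12 or 16). Of all genes, 3.64% were higher within 44-54 and 3.23% within 32-37. The count of 3 lower genes was 5 with a pseudocount of 64, 0 with centred arrays, 0 with time alone, 0 within 44-54, 1 within 32-37, 0 within 12-22, and between 1 and 4 without single arrays (1 without array 35 or 34). Of all genes, 8.03% were lower with centred arrays, 5.39% within 44-54, 3.52% within 32-37 and 6.62% within 12-22. The median of the 39 genes (-0.16) was 0.10 with centred arrays. At 4 h over 1 h the count of 1 higher gene was 2 with the filter on dim probe sets, 3 with centred arrays, 0 with time alone and within 44-54 and 32-37, and between 0 and 2 without single arrays. Of all genes left by the filter, 12.3% were higher. Of all genes, 11.3% were higher with centred arrays, 2.07% within 44-54 and 1.76% within 32-37. The count of 2 lower genes was 4 with the filter, 1 with quantile normalization, 0 with centred arrays, 1 with averaged probe sets, 0 with time alone, 0 within 44-54, 1 within 32-37, 0 within 12-22, and between 1 and 3 without single arrays. Of all genes left by the filter, 26.6% were lower. Of all genes, 9.76% were lower with quantile normalization, 6.21% with centred arrays, 2.98% within 44-54, 2.14% within 32-37 and 5.91% within 12-22. The shares for a pseudocount of 64, averaged probe sets, time alone and single arrays left out are not given, so those counts are not read further. The median of the 39 genes (-0.10) was 0.13 with centred arrays and 0.02 with quantile normalization. No named difference past the threshold changed sign, while the medians at 4 h over 0 h and 4 h over 1 h did with centred arrays, and that at 4 h over 1 h with quantile normalization. The labels carry no replicate numbers. A block on the lower and higher array code of each range and time, chosen after seeing the data, gave 5 lower genes at 4 h over 0 h and 2 higher and 3 lower at 4 h over 1 h, and ended no time call of the 39 genes. The calls rest on 6 arrays a range or time, and the signals of Lum, Fbln1, Mfap5 and Thy1 lay below the median of most arrays. The range comparisons treated the 6 arrays of a range as independent apart from time. Yet in 9 of 9 pairs of equal range and time the higher-coded array had the higher average over the 39 genes. How far the p-values of the range comparisons depend on this was not tested.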

Other observations

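Within each of the 9 combinations of range and time, the array with the higher code had the higher average over the 39 genes, by between 0.17 and 0.47 on the log2 scale. This was noticed after the data were seen and carries no test. Of the 39 genes, 9 (23.1%) were higher on the higher-coded array in 9 of 9 pairs, against 337 of all 18193 genes (1.85%), and 18 (46.2%) in at least 8 of 9, against 1156 (6.35%). On the same pairs the median difference of the cell cycle genes was between 0.04 and 1.00, and that of the macrophage markers between -0.15 and 0.42. The part of either in the order of the pairs was not tested.

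Other marker lists showed few calls in 44-54 over 12-22. In limma, 0 of 7 markers passed for T cells, 0 of 4 for NK cells, 0 of 6 for mast cells, 0 of 6 for dendritic cells, 0 of 4 for erythroid cells and 0 of 6 for adipocytes and osteoblasts. In each of these lists 0 had an unadjusted p under 0.05, where 4448 of all 18193 genes did. Of 5 B cell markers, 1 was lower in 44-54 than in 12-22, where 4.69% of all genes were. It was Cd79b, a chain of the B cell receptor, with a log2 difference of -1.57.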
